A study of Mus musculus with 6 samples.

Results

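The core of the Hippo pathway was followed as 10 genes chosen by symbol. They were the LATS kinases Lats1 and Lats2, the MST kinases Stk3 and Stk4, the coactivators Yap1 and Wwtr1, the transcription factors Tead1, Tead2 and Tead4, and the angiomotin family gene Amotl2. These are 10 of the 21978 entries in a table of mRNA-seq counts from mouse embryonic stem cells, and all 10 passed the filter on low counts that kept 16498 entries for testing. The rule names symbols and uses no measured value, but the 10 genes and the lists below were chosen with earlier results of these data known.

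The series compared 3 states of DGCR8, the RNA-binding partner of the nuclease Drosha in the complex that cuts primary miRNA transcripts, with 2 libraries each. The KO libraries 1 and 3 came from cells labelled DGCR8 -/- that were not transfected. The E518K libraries, clones 8 and 15, came from cells labelled DGCR8 E518K/E518K that had received the transposon vector pSB ET iE-FlagDGCR8-E518K together with the transposase plasmid pCMV(CAT)-SB100X. The wt libraries, clones 12 and 16, came from cells labelled DGCR8 wt/wt that had received pSB ET iE-FlagDGCR8-wt and the same plasmid. All groups shared the strain label NBA1-19349 from Novus Biochemicals, doxycycline at 300 ng/mL for 48 h, feeder-free culture on gelatin, and medium with leukemia inhibitory factor and the inhibitors CHIR99021 (of GSK3) and PD0325901 (of MEK). Both KO titles carry the clone number 261 although the design text speaks of independent clones, so KO replicates may differ by technical spread only. Whether the E518K and wt cells derive from the KO line, and what drives the vector's transcript, was not stated in the labels. No such vector was given to KO cells, so transfection and DGCR8 state cannot be told apart in comparisons with KO.

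Totals lay between 73642784 and 75121971 counts per library, so counting error was small for all 10 genes. Dgcr8 itself stood at 40.0 and 37.1 CPM, counts scaled to library size, in KO libraries 1 and 3, at 820.6 and 420.2 CPM in E518K clones 8 and 15, and at 195.5 and 992.4 CPM in wt clones 12 and 16. The groups differed in how closely their libraries matched: the biological coefficient of variation was 2.605% in KO, 9.19% in E518K and 20.6% in wt. Embryonic stem cell markers were abundant in every library, with Pou5f1 at 1114 and 1076 CPM in KO, 1361 and 1344 CPM in E518K, and 1358 and 1196 CPM in wt. Because these are bulk samples, fewer cells of a type and less RNA per cell cannot be told apart.

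In the Hippo pathway, the MST kinases, which Stk3 and Stk4 encode as MST2 and MST1, activate the LATS kinases, and the LATS kinases phosphorylate YAP and TAZ (the products of Yap1 and Wwtr1). Phosphorylated YAP and TAZ stay in the cytoplasm or are degraded, whereas in the nucleus they bind TEAD factors, which carry the DNA-binding domain, and activate transcription. Angiomotin proteins such as AMOTL2 hold YAP at junctions and actin and promote its phosphorylation. In the early mouse embryo the pathway is known for separating trophectoderm, where nuclear YAP acts with TEAD4, from the inner cell mass, the source of embryonic stem cells.

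miRNAs of the miR-290 family, with mmu-miR-302b-3p among those that share their seed, are abundant in mouse embryonic stem cells, and Lats2 has been named among their targets, so the seed and its matches in the 10 genes are shown before the levels. The mature sequences below come from RefSeq on GRCm38.p6, 5′ to 3′, with the seed (bases 2 to 8) in capitals. They show that the first set shares 1 seed, that the second has the same letters shifted by 1 base, and that the third is unrelated.
mmu-miR-291a-3p: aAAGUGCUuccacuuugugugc
mmu-miR-294-3p: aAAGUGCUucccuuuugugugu
mmu-miR-302b-3p: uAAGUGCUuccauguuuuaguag
mmu-miR-17-5p: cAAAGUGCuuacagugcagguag
mmu-miR-93-5p: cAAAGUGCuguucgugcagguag
mmu-miR-15b-5p: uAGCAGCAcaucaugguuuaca
mmu-miR-16-5p: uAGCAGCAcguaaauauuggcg

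A match was searched as AGCACTT for the miR-290 family, GCACTTT for miR-17/93 and TGCTGCT for miR-15/16, on the sense strand of the longest annotated protein-coding 3′ UTR of each gene. AGCACTT and GCACTTT overlap where an AGCACTT is followed by T. The 3′ UTR of Lats2 held AGCACTT 2 times, starting 195 and 294 bases after the stop codon. That of Lats1 held it once, at base 1146, that of Stk4 once, at base 56, and that of Wwtr1 once, at base 1898. The windows of 30 bases, with the match in capitals and the transcribed strand shown, are as follows.
Lats2 at base 195: agtatggaaagAGCACTTattttgtggata
Lats2 at base 294: ttgtatctgatAGCACTTgtccacagctag
Lats1 at base 1146: ctcagtggtagAGCACTTgcctaacataca
Stk4 at base 56: gtctgttagccAGCACTTctgctctgtcat
Wwtr1 at base 1898: ctctctctctgAGCACTTcaagagagacaa

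On GRCm38 these windows lie at chr14:57691075-57691104 and chr14:57690976-57691005 on the minus strand for Lats2, chr10:7714145-7714174 on the plus strand for Lats1, chr2:164151876-164151905 on the plus strand for Stk4 and chr3:57457010-57457039 on the minus strand for Wwtr1. The first Lats2 match is followed by A and is therefore an 8mer in the usual naming, whereas the other 4 are 7mers. The miR-17/93 match occurred once in Wwtr1, at base 1731, and once in Tead1, at base 1309, each time as an 8mer. The miR-15/16 match occurred 4 times in Lats1, where 2 of the matches overlap, and once each in Lats2, Tead1, Tead4 and Amotl2. Lats2 also held GTGCAAT, the match of the miR-25/92 seed, as an 8mer at base 349. Tead1 held the matches of miR-25/92, miR-19 and the miR-130 family once each, and Tead4 that of let-7 once. No match to any of the 8 seed families searched lay in the windows of Stk3, Yap1 or Tead2, which says only that these letters are not there.

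Such matches are common. Among 14966 tested genes with an annotated 3′ UTR, 16.7% held the miR-290 family match, against 4 of the 10 genes here, and 3.08% held it at least 2 times, as Lats2 does. The miR-15/16 match stood in 23.6% of them, against 5 of 10, and the miR-17/93 match in 13.8%, against 2 of 10. Longer 3′ UTRs hold more matches by their length: the median 3′ UTR was 2495 bases in genes with the miR-290 family match and 924 bases in genes without it. The 3′ UTRs of the 10 genes ran between 716 bases in Tead2 and 8147 bases in Tead1, those of Lats1 and Lats2 being 3450 and 1626 bases long. The levels of the miRNAs were not analysed here.

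**Figure D1:**
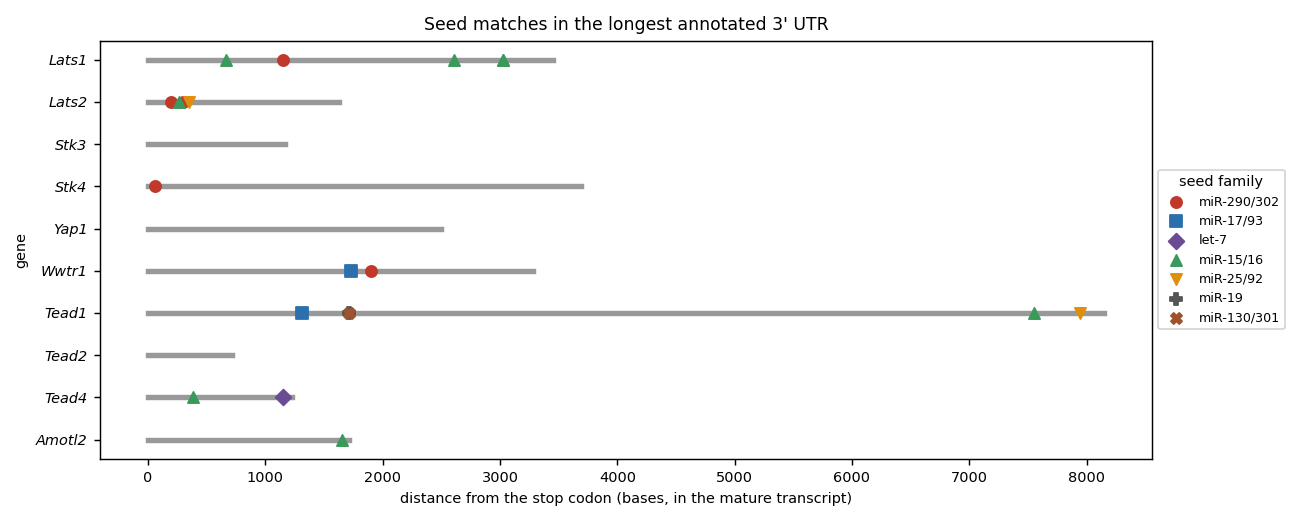
Positions of seed matches in the longest annotated protein-coding 3′ UTR of the 10 genes, in bases after the stop codon (x axis), 1 gene per row, with grey bars for the UTR and symbols for the seed family. Lats2 carries 4 matches within its first 355 bases, while Stk3, Yap1 and Tead2 carry none of those searched.

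The comparisons asked what differs in cells without DGCR8 (KO against wt), in cells with the E518K protein (E518K against wt), and between these states (KO against E518K). A gene is called higher or lower where edgeR's quasi-likelihood test gave a Benjamini-Hochberg adjusted p under 0.05 over all tested genes. In KO against wt, 3 of the 10 genes were higher (Lats1, Lats2 and Stk3) and 2 were lower (Wwtr1 and Tead2). Of all tested genes 57.2% were called in that comparison, 27.4% higher and 29.7% lower, so 5 calls in 10 lies near the background share. In E518K against wt, Lats2 was higher and Tead2 lower, 2 of 10 against 23.7% of all tested genes, of which 11.3% were higher and 12.5% lower. In KO against E518K, Lats1, Lats2 and Stk3 were higher and Wwtr1 and Tead2 lower, against 41.8% of all tested genes, with 19.8% higher and 22% lower.

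The median log2 fold change of the 10 genes was -0.01 in KO against wt, -0.03 in E518K against wt and 0.11 in KO against E518K, beside -0.02, -0.02 and 0.02 over all tested genes. The median absolute log2 change was 0.45, 0.21 and 0.25 in the same comparisons, beside 0.52, 0.28 and 0.40 over all tested genes. The medians thus lay near those of all tested genes, and the differences stood in single genes. The absolute change of Lats2 exceeded that of 97.0% of tested genes in KO against wt, 81.2% in E518K against wt and 97.5% in KO against E518K. That of Yap1 exceeded 2.78%, 9.74% and 10.2% in the same order. KO against wt and E518K against wt share the wt libraries, and KO against wt and KO against E518K share the KO libraries, so their values are not independent.

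Libraries of KO and wt did not overlap for 7 of the 10 genes, beside 81.7% of all tested genes, those of E518K and wt for 7, beside 62%, and those of KO and E518K for all 10, beside 80.5%. The split of calls moved with the scaling. Of the calls over all genes in E518K against wt 47.5% were higher, a share of 37.5% when upper-quartile factors were used and of 26.8% in a limma fit of log2(TPM + 1). In KO against E518K the share was 47.3%, and 59.3% in that limma fit. The limma fit also shifted the values of genes in KO against E518K by a median of 0.10, while the median over all genes went from 0.02 to 0.03. Neither setting turned the direction of any call among the 10 genes.

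**Figure D2:**
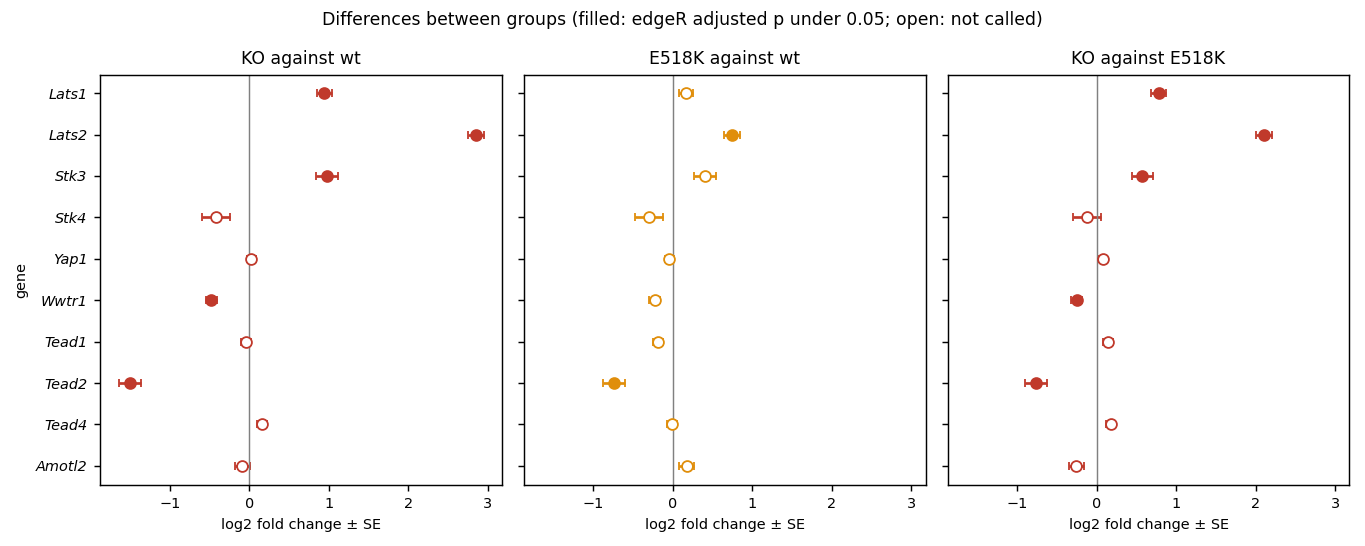
Log2 fold changes (x axis) of the 10 genes in the 3 comparisons, from the edgeR fit, with bars of 1 standard error and filled points for an adjusted p under 0.05. Lats2 lies farthest to the right in each panel and Tead2 farthest to the left, while Yap1 and Tead1 lie near 0 in KO against wt.

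Lats2 (chromosome 14, 57689662 to 57758388, minus strand, GRCm38), whose kinase phosphorylates YAP and TAZ, changed most. It stood at 54.5 and 54.9 CPM in KO libraries 1 and 3, at 11.9 and 13.5 CPM in E518K clones 8 and 15, and at 7.45 and 7.74 CPM in wt clones 12 and 16. The libraries of the 3 groups fell into separate ranges, with E518K closer to wt than to KO. Against wt, Lats2 was 7.20-fold higher in KO, a log2 fold change of 2.85 ± 0.10 (SE; edgeR adjusted p = 1.01e-05), and 1.68-fold higher in E518K, at 0.74 ± 0.10 (edgeR adjusted p = 0.00385). KO exceeded E518K 4.30-fold (2.10 ± 0.10, edgeR adjusted p = 7.79e-05), so cells with the E518K protein also differed from cells without DGCR8.

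Lats2 was called with the same sign in all 3 comparisons under each of the 13 alternatives. Its log2 fold change ranged over them between 1.90 and 2.87 in KO against wt, between 0.33 and 0.84 in E518K against wt and between 1.57 and 2.18 in KO against E518K. The lowest values come from log2(TPM + 1), which understates changes of low genes. An annotated protein-coding model, Gm49361, lies over Lats2 on the same strand and has no row in the table, so reads of the 2 models cannot be told apart. The Lats2 matches to the miR-290 family, miR-15/16 and miR-25/92 seeds are those printed or placed above. For comparison, tested genes with a miR-290 family match had a median log2 fold change of 0.21 in KO against wt, 0.02 in E518K against wt and 0.21 in KO against E518K, and genes without one had -0.08, -0.03 and -0.03. The value in KO against wt was not particular to this family. Genes with a match had medians of 0.23 for miR-17/93, 0.22 for miR-25/92, 0.21 for the miR-130 family and 0.18 for miR-19. For miR-15/16 and let-7 the medians were 0.02 and -0.0003. These medians do not take the length of the 3′ UTR into account. The part of the matches in the change of Lats2 was not tested.

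Lats1 (chromosome 10, 7681214 to 7716460, plus strand), the paralog with the same substrates, also rose in KO, by less. Its level was 41.7 and 40.7 CPM in KO, 23.3 and 24.7 CPM in E518K, and 20.2 and 22.6 CPM in wt. The KO libraries stood apart from the other 4, whereas E518K lay just above wt. Lats1 rose by 0.95 ± 0.09 in KO against wt (1.93-fold, edgeR adjusted p = 0.000195) and by 0.78 ± 0.09 in KO against E518K (edgeR adjusted p = 0.000778). In E518K against wt it stood at 0.17 ± 0.09 (edgeR adjusted p = 0.217), and without wt clone 16 this became 0.25 and was called (edgeR adjusted p = 0.0385, range over the alternatives 0.0385 to 0.580).

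Because Lats2 changed more than Lats1, the makeup of the LATS transcripts differed between groups. On the TPM scale, which here divides by the genomic span, Lats2 held 40.1% and 40.9% of the summed level of both genes in KO, 20.7% and 21.9% in E518K, and 15.9% and 14.9% in wt. The sum was 13.5 and 13.4 TPM in KO, 5.21 and 5.80 TPM in E518K, and 4.35 and 5.19 TPM in wt. Lats1 was the higher of the pair per genomic span in every library. Per exonic kilobase the order turned in KO, where Lats2 averaged 7.85 CPM and Lats1 5.65 CPM, whereas Lats2 averaged 1.82 CPM and Lats1 3.29 CPM in E518K, and 1.09 and 2.93 CPM in wt.

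The MST kinases, upstream of LATS, did not move together. Stk3 (chromosome 15, 34875496 to 35178921, minus strand), which encodes MST2, had 27.0 and 26.4 CPM in KO, 15.5 and 20.3 CPM in E518K, and 13.7 and 13.4 CPM in wt. It was 1.97-fold higher in KO than in wt (0.98 ± 0.14, edgeR adjusted p = 0.00095) and 1.49-fold higher in KO than in E518K (0.58 ± 0.14, edgeR adjusted p = 0.0128). The E518K clones differed from each other, with clone 15 closer to KO, and E518K against wt gave 0.40 ± 0.14 (edgeR adjusted p = 0.0714). Without E518K clone 8 this comparison was called, at 0.59 (edgeR adjusted p = 0.0332), while without clone 15 it gave 0.20 (0.300), and DESeq2 called it at 0.41 (0.0269). Its adjusted p over the alternatives lay between 0.0269 and 0.300. The call in KO against E518K depended on single libraries. Without KO library 1 it became 0.56 (edgeR adjusted p = 0.0883), without KO library 3 0.59 (0.0736), without E518K clone 8 0.39 (0.0522), and after summing both KO libraries 0.58 (0.0778). Over all alternatives the adjusted p ranged between 0.000603 and 0.0883. On the log2(TPM + 1) scale the change in KO against wt was 0.31 and still called.

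Stk4 (chromosome 2, 164070322 to 164155524, plus strand), which encodes MST1, stood at 82.7 and 88.6 CPM in KO, 94.0 and 92.2 CPM in E518K, and 139.2 and 90.0 CPM in wt. The wt clones disagreed, clone 12 lying above every other library and clone 16 between the KO and the E518K values. None of the 3 comparisons was called, with log2 fold changes of -0.42 ± 0.18 in KO against wt, -0.30 ± 0.18 in E518K against wt and -0.12 ± 0.18 in KO against E518K (edgeR adjusted p = 0.0788, 0.254 and 0.616). Without wt clone 16, Stk4 was called lower than wt in KO (-0.71) and in E518K (-0.58). With all libraries kept, KO against wt was called with upper-quartile factors (-0.47, edgeR adjusted p = 0.0441) and in DESeq2 (-0.41, DESeq2 adjusted p = 0.0408). E518K against wt was called in neither. The result thus depends on the wt clone that is kept and, in KO against wt, on the method. Stk4 shares 848 bases with Tomm34 on the other strand, whose level was 48.3 and 46.7 CPM in KO, 52.4 and 50.9 CPM in E518K, and 85.8 and 55.0 CPM in wt. Tomm34 was likewise high in wt clone 12, and its part in the Stk4 counts was not tested.

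Per genomic length Stk4 made up most of the MST level in every library. Stk3 held 8.39% and 7.71% of the sum in KO, 4.42% and 5.83% in E518K, and 2.68% and 4.01% in wt. The Stk3 span is 303426 bases long with 6114 exonic bases, so its level per span is low by construction.

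**Figure D3:**
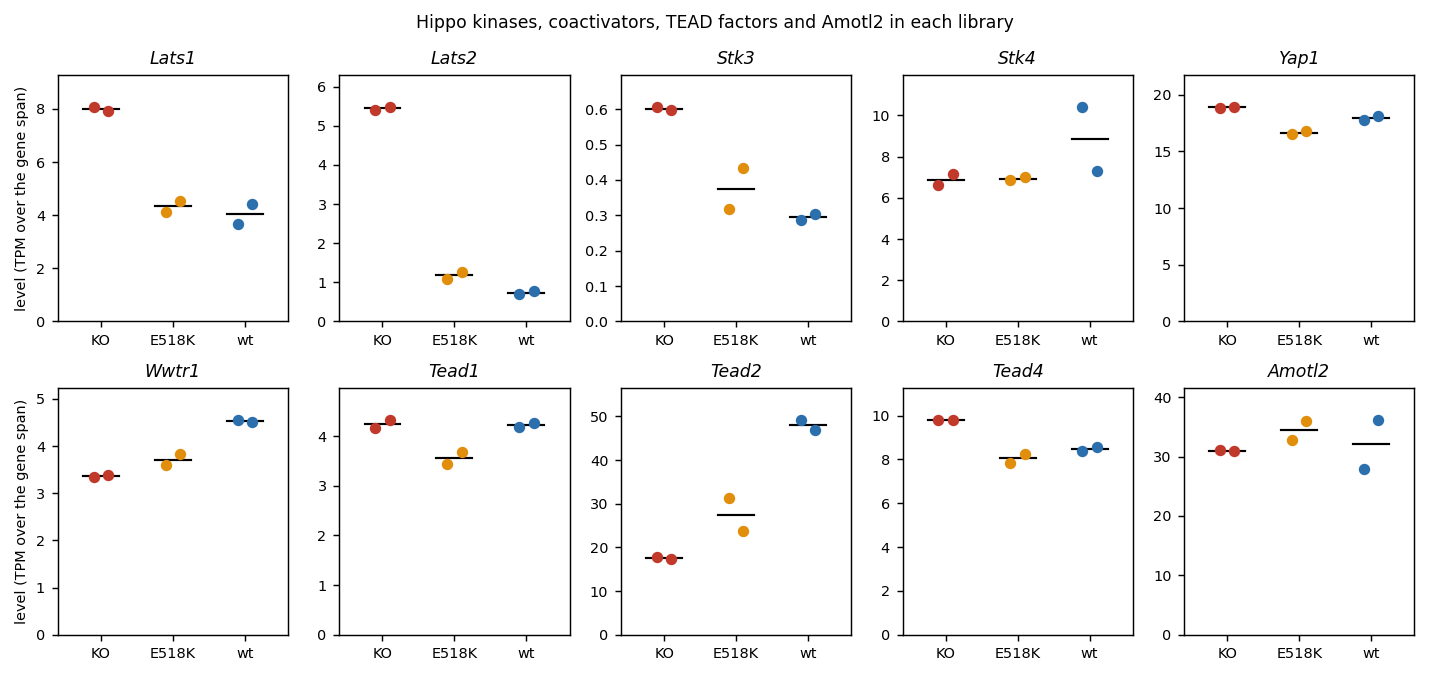
Levels of the 10 genes in TPM over the gene span (y axes, starting at 0) in KO, E518K and wt libraries, with 1 point per library and a line at the mean of 2. Lats1, Lats2 and Stk3 are highest in KO, Tead2 and Wwtr1 are highest in wt, and Stk4 and Amotl2 show the spread between the wt clones.

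The coactivators are the substrates of the LATS kinases. Yap1 (chromosome 9, 7931999 to 8004596, minus strand) changed least of the 10 in KO against wt, at 200.3 and 200.05 CPM in KO, 191.9 and 188.4 CPM in E518K, and 202.1 and 190.8 CPM in wt. KO values fell within the wt range. The log2 fold changes were 0.03 ± 0.06 in KO against wt, -0.05 ± 0.06 in E518K against wt and 0.07 ± 0.06 in KO against E518K (edgeR adjusted p = 0.716, 0.592 and 0.345), differences no larger than the spread between replicates in the comparisons with wt. The KO against E518K value was called in 1 alternative, limma on log2(TPM + 1), at 0.17 (adjusted p = 0.0467, range over the alternatives 0.0467 to 0.708).

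Wwtr1 (chromosome 3, 57455649 to 57575910, minus strand), which encodes TAZ, stood at 59.0 and 59.2 CPM in KO, 69.4 and 71.3 CPM in E518K, and 85.8 and 78.8 CPM in wt. Its libraries were ordered KO, E518K and wt without overlap. It fell by 0.48 ± 0.07 on the log2 scale in KO against wt (edgeR adjusted p = 0.00112). E518K against wt gave -0.23 ± 0.07 (edgeR adjusted p = 0.0533), and KO against E518K gave -0.25 ± 0.07 and was called (edgeR adjusted p = 0.0241). That last call was lost when any KO or E518K library was left out, with edgeR adjusted p = 0.166 and 0.159 without KO libraries 1 and 3, and 0.0763 and 0.0898 without E518K clones 8 and 15. It was also lost after summing the KO libraries (0.166) and in the limma fit of log2(TPM + 1) (0.227). Those tests gave log2 fold changes between -0.27 and -0.11. Without wt clone 16 the E518K value was -0.29 and called (edgeR adjusted p = 0.00467, range 0.00467 to 0.193).

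Wwtr1 held 15.1% and 15.2% of the summed coactivator TPM in KO, 17.9% and 18.6% in E518K, and 20.4% and 19.95% in wt. The sum of both coactivators was 22.2 and 22.3 TPM in KO, 20.1 and 20.6 TPM in E518K, and 22.3 and 22.6 TPM in wt. Transcript levels do not report phosphorylation or the place of YAP and TAZ in the cell, which were not measured.

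Of the TEAD factors among the 10 genes, Tead2 (chromosome 7, 45215753 to 45233644, plus strand) fell, and Tead1 and Tead4 were not called. Tead2, the TEAD factor known to be active in the early embryo and neural progenitors, had 46.5 and 45.1 CPM in KO, 89.5 and 65.8 CPM in E518K, and 137.9 and 121.6 CPM in wt. The 3 groups did not overlap, and the E518K clones lay between KO and wt. Tead2 was 2.83-fold lower in KO than in wt (-1.502 ± 0.14, edgeR adjusted p = 0.000197). It fell by 0.74 ± 0.14 in E518K against wt (edgeR adjusted p = 0.0119) and by 0.76 ± 0.14 in KO against E518K (edgeR adjusted p = 0.00492). Without E518K clone 15 the E518K against wt call was lost (-0.53, edgeR adjusted p = 0.0618, range over the alternatives 2.44e-05 to 0.0618).

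Tead2 shares 13 bases with Cd37 on the other strand, and no match to the searched seeds lies in its 3′ UTR. Stk3, which rose in KO, holds none either. Lats1 and Lats2, which also rose in KO, hold the miR-290 family match 1 and 2 times. Wwtr1, which fell in KO, holds a miR-290 family and a miR-17/93 match, and Stk4, which was not called, holds 1 miR-290 family match. Any link between matches and direction was not tested. The fall of Tead2 in KO against wt was larger in size than the change of 85.6% of tested genes. It was called there under each of the 12 alternatives that could be fitted to it, between -1.60 and -1.40.

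Tead1 (chromosome 7, 112679318 to 112906807, plus strand) stood at 138.5 and 143.3 CPM in KO, 125.1 and 129.6 CPM in E518K, and 149.3 and 141.1 CPM in wt. It was lowest in both E518K clones, and no comparison was called, at -0.04 ± 0.06 in KO against wt, -0.19 ± 0.06 in E518K against wt and 0.15 ± 0.06 in KO against E518K (edgeR adjusted p = 0.573, 0.0679 and 0.103). Without wt clone 16 the E518K against wt value was -0.23 and called (edgeR adjusted p = 0.0105), and without either wt clone KO against E518K was 0.14 and called (0.0261 without clone 12 and 0.0269 without clone 16). The ranges of the adjusted p over the alternatives were 0.0105 to 0.235 and 0.0245 to 0.453.

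Tead4 (chromosome 6, 128224288 to 128300823, minus strand), the factor needed for trophectoderm in the mouse embryo, was nearly level. It had 109.9 and 109.2 CPM in KO, 96.3 and 97.8 CPM in E518K, and 100.8 and 95.3 CPM in wt. KO was the highest group by a small margin, with 0.16 ± 0.06 in KO against wt and 0.17 ± 0.06 in KO against E518K (edgeR adjusted p = 0.0581 and 0.0559), and E518K against wt was -0.01 ± 0.06 (edgeR adjusted p = 0.881). Without wt clone 12 both KO values were called (0.20 and 0.17, edgeR adjusted p = 0.0119 and 0.00947, ranges 0.0119 to 0.280 and 0.00884 to 0.301), and without wt clone 16 the one against E518K was (0.17, edgeR adjusted p = 0.00977).

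The balance among the TEAD transcripts followed Tead2. With Tead3 included as the remaining paralog, Tead2 held 54.2% and 53.5% of the summed TEAD TPM in KO, 71.7% and 65.0% in E518K, and 77.1% and 76.0% in wt. The sum was 32.7 and 32.4 TPM in KO, 43.5 and 36.5 TPM in E518K, and 63.8 and 61.6 TPM in wt. TPM per span gives the short Tead2 span a large weight, and the summed CPM differed less, at 297.6 and 300.1 in KO, 314.1 and 295.6 in E518K, and 394.0 and 363.2 in wt. Tead3 itself, named here after its values were seen, was the least abundant, with 2.85 and 2.57 CPM in KO, 3.18 and 2.48 CPM in E518K, and 5.95 and 5.27 CPM in wt. Against wt it fell by 1.05 ± 0.20 in KO (edgeR adjusted p = 0.00345) and by 0.99 ± 0.20 in E518K (0.0144), and KO and E518K overlapped.

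**Figure D4:**
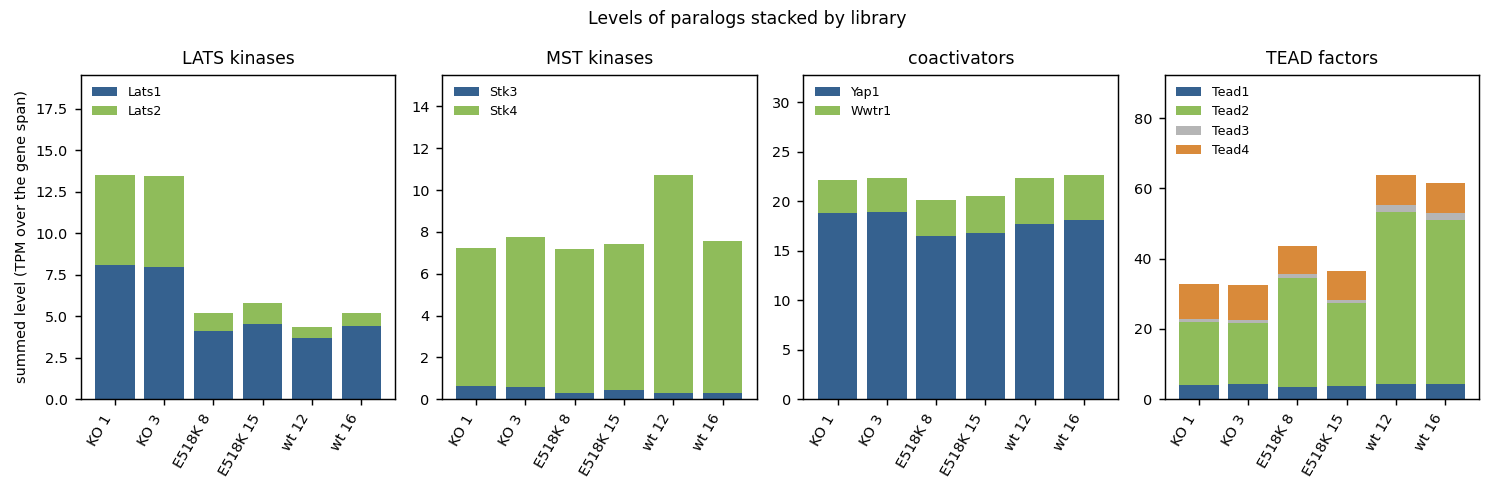
Stacked levels of paralogs in each library, in TPM over the gene span (y axes, starting at 0), for LATS kinases, MST kinases, coactivators and TEAD factors, with KO libraries on the left, then E518K and wt. Lats2 forms the upper part of the LATS bars and is widest in KO, and the Tead2 part is widest in wt.

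Amotl2 (chromosome 9, 102716672 to 102733418, plus strand), which restrains YAP and is itself a YAP target, had 76.2 and 75.6 CPM in KO, 87.8 and 93.5 CPM in E518K, and 73.3 and 87.8 CPM in wt. The KO libraries lay between the wt clones, which differed by more than any other pair. The log2 fold changes were -0.09 ± 0.09 in KO against wt, 0.17 ± 0.09 in E518K against wt and -0.26 ± 0.09 in KO against E518K (edgeR adjusted p = 0.454, 0.224 and 0.0626). Against wt, the wt clone kept decided the outcome: KO was called lower without clone 12 (-0.21, edgeR adjusted p = 0.0159) and E518K higher without clone 16 (0.31, edgeR adjusted p = 0.00489). KO against E518K was called in 6 of the 13 alternatives, among them without wt clone 12 or 16 (-0.26 each, edgeR adjusted p = 0.00205 and 0.00198), with adjusted p ranging over all of them between 0.00198 and 0.431.

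Levels of different genes can be set side by side only per length. In TPM over the span, the order in KO was Amotl2, Yap1, Tead2, Tead4, Lats1, Stk4, Lats2, Tead1, Wwtr1 and Stk3, each with its libraries above those of the next. In E518K it was Amotl2, Tead2, Yap1, Tead4, Stk4, Lats1, Wwtr1, Tead1, Lats2 and Stk3, and only Wwtr1 and Tead1 overlapped as neighbours. In wt it was Tead2, Amotl2, Yap1, Stk4, Tead4, Wwtr1, Tead1, Lats1, Lats2 and Stk3, with overlap between Stk4 and Tead4 and between Tead1 and Lats1. Tead2 ranked 3 in KO, 2 in E518K and 1 in wt, while Lats2 ranked 7 in KO and 9 in E518K and wt.

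The order depends on which length is used, since spans hold introns and the RNA was selected by its poly(A) tail. In CPM per exonic kilobase Tead4 ranked first in each group, at 30.4 in KO, 27.0 in E518K and 27.2 in wt. Last place went to Stk3 in KO, at 4.36, and to Lats2 in E518K and wt, at 1.82 and 1.09. Comparisons of 1 gene between groups do not depend on its length.

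The genes whose pattern over the 6 libraries was most like that of Lats2 were sought among 12066 tested genes outside the lists, by the root mean square difference of log2 CPM centred on each gene's mean. They were Bhmt2, a homocysteine methyltransferase (0.127), Shtn1, an axon outgrowth protein (0.138), Dock2, an exchange factor for Rac (0.142), Klk10, a secreted kallikrein-related protease (0.161), and Kif26b, a kinesin (0.166). Bhmt2 had 23.5 and 23.0 CPM in KO, 5.98 and 5.71 CPM in E518K, and 3.81 and 3.22 CPM in wt. All 5 were higher in KO than in wt, by 2.68 to 2.89 on the log2 scale, but they were picked for that pattern. Dock2 overlaps another gene of the table, Fam196b, and may share its reads.

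The pathway around the 10 genes was read from 4 lists. Of 26 tested scaffolds and upstream regulators (28 listed), 13 were higher and 7 lower in KO against wt, 5 higher and 6 lower in E518K against wt, and 12 higher and 2 lower in KO against E518K. Of all tested genes 27.4% were higher and 29.7% lower in KO against wt, 11.3% and 12.5% in E518K against wt, and 19.8% and 22% in KO against E518K. The list's median log2 fold changes were 0.16, -0.07 and 0.16 in these comparisons. Its split in E518K against wt moved with the fit, to 2 higher and 2 lower with only the 4 libraries compared, and to 4 calls, all lower, in limma on log2(TPM + 1), where 4 genes were higher at an unadjusted p under 0.05. Mink1, a kinase of the MAP4K group that can act on LATS beside MST, had 146.6 and 150.5 CPM in KO, 84.7 and 79.0 CPM in E518K, and 63.5 and 68.3 CPM in wt. Against wt it rose by 1.17 ± 0.07 in KO (edgeR adjusted p = 4.04e-05) and by 0.31 ± 0.07 in E518K (0.0204).

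Of the same list, Map4k5 rose by 1.10 ± 0.10 in KO against wt and by 0.85 ± 0.10 in KO against E518K, and it overlaps Atl1. Map4k3 rose by 0.58 ± 0.08 and by 0.72 ± 0.08 in the same comparisons. Ptpn14, a phosphatase that binds YAP, rose by 1.29 ± 0.11 and by 1.12 ± 0.11. These 3 MAP4K kinases and Ptpn14 shared the direction of Lats1 and Lats2 in KO, whereas Map4k2, Map4k4 and Tnik, named after their values were seen, fell by 0.72 ± 0.10, 0.51 ± 0.09 and 1.16 ± 0.24 in KO against wt. Map4k1, also named afterwards, was not called, at -0.03 ± 0.12, so the MAP4K group split 3 higher and 3 lower. Nf2, the merlin scaffold that activates LATS, was higher than wt by 0.49 ± 0.06 in KO and by 0.42 ± 0.06 in E518K, and Ajuba, a LIM protein that inhibits LATS, by 0.41 ± 0.11 and 0.67 ± 0.11.

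Amotl1, a paralog of Amotl2, fell where Amotl2 was not called. It had 16.3 and 15.2 CPM in KO, 11.6 and 9.44 CPM in E518K, and 33.8 and 34.7 CPM in wt. Against wt it fell by 1.12 ± 0.12 in KO (edgeR adjusted p = 0.000304) and by 1.70 ± 0.12 in E518K (0.000773), and KO exceeded E518K by 0.58 ± 0.12 (0.00788). Frmd6, a FERM protein upstream of the kinases, was lower in E518K than in wt by a log2 fold change of -0.72 ± 0.16 (0.0191) and stood at -0.08 ± 0.16 in KO against wt.

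Of 14 tested YAP and TEAD binding partners (16 listed), 4 were higher and 8 lower in KO against wt, 5 higher and 2 lower in E518K against wt, and 4 higher and 5 lower in KO against E518K, with median log2 fold changes of -0.30, -0.08 and -0.05. The shares of all tested genes were 27.4% higher and 29.7% lower, 11.3% and 12.5%, and 19.8% and 22% in the same order. Vgll3 and Vgll4, cofactors that bind TEAD in place of YAP, were highest in KO. Vgll3 had 6.88 and 6.55 CPM in KO, 2.01 and 1.70 CPM in E518K, and 0.552 and 0.473 CPM in wt, and rose by 3.71 ± 0.22 in KO and by 1.85 ± 0.22 in E518K against wt (edgeR adjusted p = 4.03e-05 and 0.00291). Vgll4 had 41.6 and 40.8 CPM in KO, 23.7 CPM in each E518K clone, and 14.8 and 16.2 CPM in wt, and rose by 1.41 ± 0.09 and by 0.61 ± 0.09 (4.23e-05 and 0.00465).

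Both Vgll genes thus stood in the order KO, E518K and wt without overlap, as Lats2 did. They were named for their small p, and the share of all tested genes in this order was not counted. Libraries did not overlap for 81.7% of all tested genes in KO against wt, 62% in E518K against wt and 80.5% in KO against E518K. Among the 14-3-3 proteins, which hold phosphorylated YAP, Sfn rose by 1.10 ± 0.08 in KO against wt, Ywhae fell by 0.51 ± 0.06, and Ywhaq was higher by 0.29 ± 0.05 in KO and by 0.33 ± 0.05 in E518K. Ywhab and Ywhag, named after their values were seen, were also lower in KO than in wt, at -0.90 ± 0.19 and -0.38 ± 0.06. Ywhah and Ywhaz, also named afterwards, were not called in KO against wt. Csnk1e, a kinase that promotes the degradation of YAP, fell by 0.52 ± 0.08 in KO and by 1.02 ± 0.08 in E518K against wt.

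The STRIPAK complex holds a phosphatase that acts on the MST kinases. Of its 15 genes, 7 were higher and 4 lower in KO against wt, 3 higher and 2 lower in E518K against wt and in KO against E518K, with median log2 fold changes of -0.04, 0.10 and 0.04. Over all tested genes the called shares were 57.2% in KO against wt, 23.7% in E518K against wt and 41.8% in KO against E518K. The catalytic subunit Ppp2ca fell by 0.26 ± 0.05 in KO against wt and by 0.36 ± 0.05 in KO against E518K, whereas Strn, a scaffold subunit, rose by 0.54 ± 0.10 and 0.44 ± 0.10. Mob4, Pdcd10 and Fgfr1op2 were higher than wt in both other groups, by 0.71 ± 0.11, 0.62 ± 0.09 and 0.38 ± 0.07 in KO and by 0.67 ± 0.11, 0.52 ± 0.09 and 0.41 ± 0.07 in E518K. Stk24, a kinase of the complex, was higher in KO than in wt by 0.17 ± 0.06 and lower in E518K than in wt by a log2 fold change of -0.23 ± 0.06. Stk25 fell by 0.31 ± 0.07 in KO and by 0.33 ± 0.07 in E518K against wt. Fgfr1op2 and Stk25 overlap other genes of the table.

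Genes known as YAP and TEAD targets, mostly from human and mouse cell lines, formed the last list, which also holds Lats2, Amotl2 and Ptpn14. Of 21 tested (22 listed), 14 were higher and 2 lower in KO against wt, with a median log2 fold change of 0.92. E518K against wt had 5 higher and 3 lower, with a median of 0.17. In KO against E518K 11 were higher and 0 lower in edgeR, with a median of 0.68, while 2 were lower at an unadjusted p under 0.05. The lower calls numbered 2 in DESeq2, with no filter on low counts and with only the 4 libraries compared, and 1 with upper-quartile factors. Beside these stand the shares of all tested genes that were higher, 27.4%, 11.3% and 19.8%, and this comparison is a description with no test of the list.

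Nt5e, a cell surface nucleotidase, had 44.9 and 45.0 CPM in KO, 20.1 and 23.3 CPM in E518K, and 4.50 and 5.79 CPM in wt, and rose by 3.13 ± 0.14 in KO and by 2.08 ± 0.14 in E518K against wt (edgeR adjusted p = 2.08e-05 and 0.000718). Igfbp3, a binding protein of insulin-like growth factors, had 21.0 and 21.1 CPM in KO, 8.00 and 7.65 CPM in E518K, and 5.86 and 6.61 CPM in wt, and rose by 1.75 ± 0.12 in KO against wt (6.06e-05). Crim1 rose by 0.92 ± 0.14 in KO against wt and by 1.41 ± 0.15 in KO against E518K, and it overlaps Fez2. Fjx1 was higher than wt by 1.24 ± 0.12 in KO and by 1.28 ± 0.12 in E518K, and Arhgef17 was lower than wt by log2 fold changes of -0.85 ± 0.09 and -0.80 ± 0.09.

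Some of the most used YAP target genes are named here after their values were seen. Ctgf and Cyr61, the files' symbols for Ccn2 and Ccn1, were higher in KO than in wt by 0.39 ± 0.09 (edgeR adjusted p = 0.00812) and 0.63 ± 0.13 (0.00458). With E518K against wt they stood at 0.24 ± 0.09 and -0.01 ± 0.13 (0.0927 and 0.952). Ankrd1, also among the most used, was barely detected, at 0.310 and 0.220 CPM in KO, 0.0833 and 0.0823 CPM in E518K, and 0.0552 and 0 CPM in wt. It was called higher in KO than in wt (3.20 ± 0.92, edgeR adjusted p = 0.0209), a value that rests on 24 and 17 counts in KO against 4 and 0 counts in wt, and E518K against wt was not called (1.54 ± 1.06, edgeR adjusted p = 0.323). Of the targets that rose most, Lats2 and Ptpn14 are known to restrain YAP, and Lats2 carries the miRNA matches shown above, so the list holds genes of opposite roles.

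**Figure D5:**
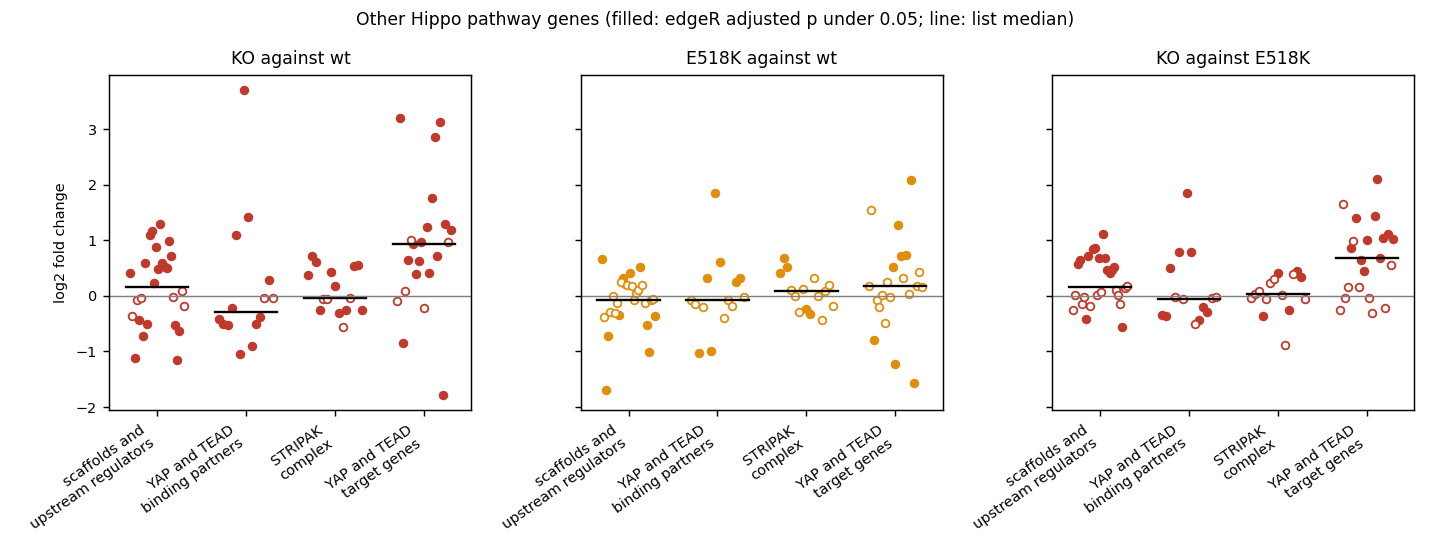
Log2 fold changes (y axis) of the tested genes in the 4 pathway lists for the 3 comparisons, with filled points for an edgeR adjusted p under 0.05 and a line at the list's median. The median of the YAP and TEAD targets is 0.92 in KO against wt and 0.17 in E518K against wt, and those of the other lists lie between -0.30 and 0.16.

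The counts of these lists depended on single libraries. In KO against wt, target calls numbered 10 without KO library 1 (8 higher), 12 without KO library 3 (10 higher) and 11 with the KO libraries summed (9 higher), and STRIPAK calls 4 and 5 without KO libraries 1 and 3. In KO against E518K, target calls numbered 6 without KO library 1, scaffold calls 8 without either KO library, and STRIPAK calls 2 without either KO library or E518K clone 8 and 8 without either wt clone. For E518K against wt, leaving out E518K clone 15 left 4 target, 2 scaffold and 3 binding partner calls. For STRIPAK it left 0 edgeR calls, with 5 genes at an unadjusted p under 0.05, beside 5 calls as reported in edgeR and 5 in DESeq2. Leaving out wt clone 16 gave 14 target, 18 scaffold and 8 STRIPAK calls, and leaving out E518K clone 8 or either KO library gave 3 STRIPAK calls and 2 to 4 scaffold calls. These recounts were added after seeing the data. Calls over all genes moved likewise. With 1 library left out, those in E518K against wt were fewest without E518K clone 15 and most without wt clone 16. Those in KO against wt fell when the KO libraries were summed. The shifts are thus not particular to the lists.

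Markers of cell types that embryonic stem cell cultures can hold were read beside these results. The 10 stem cell markers summed to 5611 and 5522 CPM in KO, 6729 and 6787 CPM in E518K, and 7421 and 6454 CPM in wt, and in KO against wt 7 were lower and 1 higher, beside 29.7% and 27.4% of all tested genes. Dppa5a, the most abundant of them, fell by 0.56 ± 0.12 in KO against wt. Trophectoderm markers, of which 10 of 12 were tested, summed to 92.8 and 97.3 CPM in KO, 85.7 and 77.3 CPM in E518K, and 104.6 and 107.0 CPM in wt. In KO against wt 6 of them were lower and 1 higher, in E518K against wt 5 were lower and 1 higher, beside 12.5% and 11.3% of all tested genes, and Elf5 and Hand1 were at or near 0 in every library. The most abundant were Tfap2c, at 38.5 and 41.0 CPM in KO, 19.8 and 15.0 CPM in E518K, and 34.5 and 23.5 CPM in wt, and Eomes, which fell by 0.95 ± 0.10 in KO against wt.

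Primitive endoderm markers summed to 9.49 and 10.3 CPM in KO, 12.2 and 10.1 CPM in E518K, and 17.8 and 24.2 CPM in wt, most of it from Lamb1, and 3 of 8 were lower in KO against wt, near the 29.7% of all tested genes. The other abundant one, Pdgfra, lay between 0.795 and 2.15 CPM in all 6 libraries. Fibroblast markers, of which 6 of 9 were tested, summed to 5.38 and 5.69 CPM in KO, 4.08 and 3.57 CPM in E518K, and 7.59 and 7.60 CPM in wt, with Pdgfrb and Col1a1 the most abundant and Lum, Fap and Postn at or near 0. The highest value of each sum was in a wt library, and Tead2, Wwtr1 and Amotl1 were also highest in wt. The part of other cell types in the differences was not tested.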

How the data were processed

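The deposited count table held whole-number counts per gene symbol for 6 libraries, not normalized by the authors. TPM values, in a second deposited table, were scaled by the authors with 1 length per gene. The submitters' processing notes name STAR, bedtools and GRCm38.p6, without roles or settings. The length implied by count and TPM was within 5% of the genomic span for 98.2% of 17679 genes (GENCODE M21). The TPM values thus divide by that span. This does not show which reads were counted. If reads were counted over the whole span, introns included, the 3544 genes that overlap another can share reads.

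Counts were tested with edgeR 4.0.16 in R 4.3.3 (TMM factors, minimum count 10, robust quasi-likelihood F tests, Benjamini-Hochberg over 16498 genes, threshold 0.05). All 6 libraries shared 1 fit by group with 3 residual degrees of freedom. CPM uses the TMM factors, and errors are standard errors of log2 fold changes. The script was tested on simulated data. Replicates of each group differed by more than sampling noise, the chi-square over its degrees of freedom being 3.55 in KO, 21.6 in E518K and 51.4 in wt, and p-values measure only the spread between these libraries.

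Seed matches (7 letters) were counted in 3′ UTRs of at least 20 bases. The 10 genes and all lists were chosen with earlier results of these data known. Named beside the 10 are, from each pathway list, the 4 genes with the smallest p in each comparison, the 2 most abundant genes of each marker list and the 5 genes most like Lats2. A gene that this rule names is not reported here. Alternatives were upper-quartile factors, no filter, DESeq2 1.42.0, limma 3.58.1 on log2(TPM + 1), only the 4 libraries compared, each library left out, KO libraries summed, and genes overlapping no other.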

Additional observations from a re-analysis of the deposited data

How the results depend on the processing

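No paired analysis was possible because the groups share no replicate number. Calls over all genes, 9429 in KO against wt, 3917 in E518K against wt and 6902 in KO against E518K, depended on which libraries set the spread. With the KO libraries summed they numbered 6163, 1909 and 3267, and E518K against wt had 1999 with only the 4 libraries compared. With 1 library left out they ranged over 6084 to 10958, 644 to 6987 and 3285 to 9482, the lowest in E518K against wt being without E518K clone 15 and the highest without wt clone 16. Where an arm was left with 1 library, it was assumed to vary like the other groups.

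Calls among the 10 genes ranged over 5 to 7, 1 to 7 and 3 to 8 with 1 library left out, beside 5, 2 and 5 as reported. In E518K against wt there were 4 with upper-quartile factors and 1 of 8 tested among genes overlapping no other, which leaves out Stk4 and Tead2. In KO against E518K there were 8 with only the 4 libraries compared and 3 with the KO libraries summed. Of the values for single genes of the 10, 157 kept their side of the threshold with 1 library left out, 15 gained a call and 8 lost one. Under other alternatives 187 kept their side, 14 gained a call and 3 lost one. Values that were not called could change sign. Yap1 in KO against wt did so with upper-quartile factors, at -0.03 beside 0.03 as reported. The lost and gained calls that rest on 1 library are given with their genes. No call changed sign. The causes of these shifts were not tested. Depth was even and high, so for the 10 genes counting error was small and the number of libraries limits the results. For genes with few counts, such as Ankrd1 with 4 and 0 counts in wt, counting error limits them as well.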
